A study of Mus musculus with 12 samples.

Results

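Cd24a, Epcam, Prom1, Cd44 and Ncam1 encode cell surface proteins used to recognise ductal progenitor cells, and their transcripts were followed from hepatocytes to bile duct cells in injured mouse liver. The 5 genes were taken by symbol from a count table of 53599 genes, and all 5 were among the 16210 genes that passed the filter on low counts. Sorted liver cells gave 12 bulk RNA-seq libraries, with 3 replicates in each of 4 groups. All mice, whose genotype the labels give as WT, received AAV8-TBG-Cre, a virus whose hepatocyte promoter drives Cre recombinase. From 1 week later they ate 0.1% DDC, a porphyrinogenic compound that injures bile ducts, for 8 weeks. The label ductal fits 4 of the 5 by their levels, which were highest or level with the highest in resident duct cells. It does not hold for Ncam1, which was low there. Epcam and Cd24 were used in the sort, which set part of the order of Epcam and Cd24a, whereas Prom1 and Cd44 were not.

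The early group was EGFP+ Cd24- Epcam-, the intermediate group EGFP+ Cd24+ Epcam- and the full group EGFP+ Cd24+ Epcam+, where EGFP marks descent from hepatocytes. The BEC group, for biliary epithelial cells, was EGFP- Epcam+ and was not gated on Cd24. All 4 groups carried the virus and the diet, so no uninjured liver enters any comparison. Age, strain, the reporter allele and whether animals were pooled are not given in the sources used here. Nothing states that replicates came from separate mice, so p-values measure the spread between these samples only.

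These proteins have different jobs. Cd24a encodes a short, heavily glycosylated protein held to the membrane by a lipid anchor, and Epcam a homophilic adhesion molecule of simple epithelia that mature hepatocytes lack. Cd44 is the main receptor for hyaluronan and also binds osteopontin. Prom1, or CD133, sits in membrane protrusions such as microvilli, and Ncam1, or CD56, is a homophilic adhesion molecule of neurons that is also known from reactive bile ductules. In cholestatic injury, cells bearing such markers gather around the portal tracts in what is called the ductular reaction.

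The upstream sequences of the members that could be matched are shown because all of them rose at both conversion steps. The same was called for 12.8% of all genes tested, and the second rise of Epcam was set by its gate. RefSeq windows on GRCm38.p6 were matched by symbol for 3 of the 5 members, Epcam, Prom1 and Cd44, and not for Cd24a and Ncam1. The submitters' processing notes name GRCm39, so these coordinates belong to the sequence table and not to the counts. Each line gives the 250 bases before an annotated start, 5′ to 3′ on the gene's strand. Capitals mark matches to any of 7 motifs, searched on both strands. The TEAD motif was searched as GGAATG, that of AP-1 as TGANTCA, that of GRHL as AACCNGTT and that of SOX as ACAAAG. RBPJ was searched as TGGGAA and the GC box as GGGCGG, while TATAAA stood for the TATA box.
Epcam, chr17:87635729-87635978, plus strand: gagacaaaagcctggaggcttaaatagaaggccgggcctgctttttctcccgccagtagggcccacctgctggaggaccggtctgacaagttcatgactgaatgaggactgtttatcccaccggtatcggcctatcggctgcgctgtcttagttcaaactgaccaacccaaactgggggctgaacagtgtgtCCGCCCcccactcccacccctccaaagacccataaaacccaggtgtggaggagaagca
Prom1, upstream start, chr5:44101737-44101986, minus strand: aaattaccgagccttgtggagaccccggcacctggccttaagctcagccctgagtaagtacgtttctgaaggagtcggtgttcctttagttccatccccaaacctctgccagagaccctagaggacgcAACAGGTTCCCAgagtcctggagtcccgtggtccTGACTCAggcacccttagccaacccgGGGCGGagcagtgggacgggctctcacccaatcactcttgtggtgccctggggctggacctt
Prom1, downstream start, chr5:44094769-44095018, minus strand: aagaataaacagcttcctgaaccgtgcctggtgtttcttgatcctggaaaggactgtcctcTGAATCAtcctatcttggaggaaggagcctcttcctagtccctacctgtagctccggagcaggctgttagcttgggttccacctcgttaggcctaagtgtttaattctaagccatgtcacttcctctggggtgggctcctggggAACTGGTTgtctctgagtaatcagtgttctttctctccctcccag
Cd44, chr2:102901666-102901915, minus strand: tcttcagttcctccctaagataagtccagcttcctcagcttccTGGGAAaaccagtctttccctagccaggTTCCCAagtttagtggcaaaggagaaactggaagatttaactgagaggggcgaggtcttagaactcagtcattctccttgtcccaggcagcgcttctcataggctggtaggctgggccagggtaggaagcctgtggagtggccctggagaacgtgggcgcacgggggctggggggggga

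The Epcam window held 1 GC box and no other match. Both Prom1 windows held an AP-1 and a GRHL match, and in the upstream one the GRHL match overlapped an RBPJ match and there was also a GC box. The Cd44 window held 2 RBPJ matches. Among all 32851 windows of this length, 1.79% held the GRHL motif, 6.75% the AP-1 motif, 21.6% the RBPJ motif and 32.7% the GC box. The TEAD, SOX and TATA box letters, present in 12.6%, 16.5% and 12.4% of windows, were not in the 4 windows shown. These matches describe letters only.

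Libraries held between 15112893 and 19731887 counts. Levels are given in CPM, that is counts scaled to a common library size, after TMM correction for composition. A level of 3 counts, taken as the floor, corresponded to between 0.128 and 0.273 CPM. The mitochondrial share was 6%, 11.4% and 5.45% in early replicates 1 to 3 and at most 4.75% in the intermediate, full and BEC libraries. Every early library thus lay above all others. Summed over 8 hepatocyte markers, the level ran from 93200 to 97300 CPM in early and from 1990 to 2620 in BEC libraries. Summed over 6 biliary markers, it ran from 950 to 1910 CPM in early and from 12900 to 16200 in BEC. Most of that sum was Spp1, at 1237 CPM in early and 12140 in BEC, and the keratin gene Krt19 went from 0.111 to 593 CPM. Of 2 mesothelial markers, Msln had 0.880 CPM in intermediate and 198 in BEC, whereas Upk3b was at 1.14 CPM or below in every group's mean. The part of such cells in the members' levels was not tested. In bulk libraries, fewer cells of a type and less RNA per cell cannot be told apart.

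**Figure D1:**
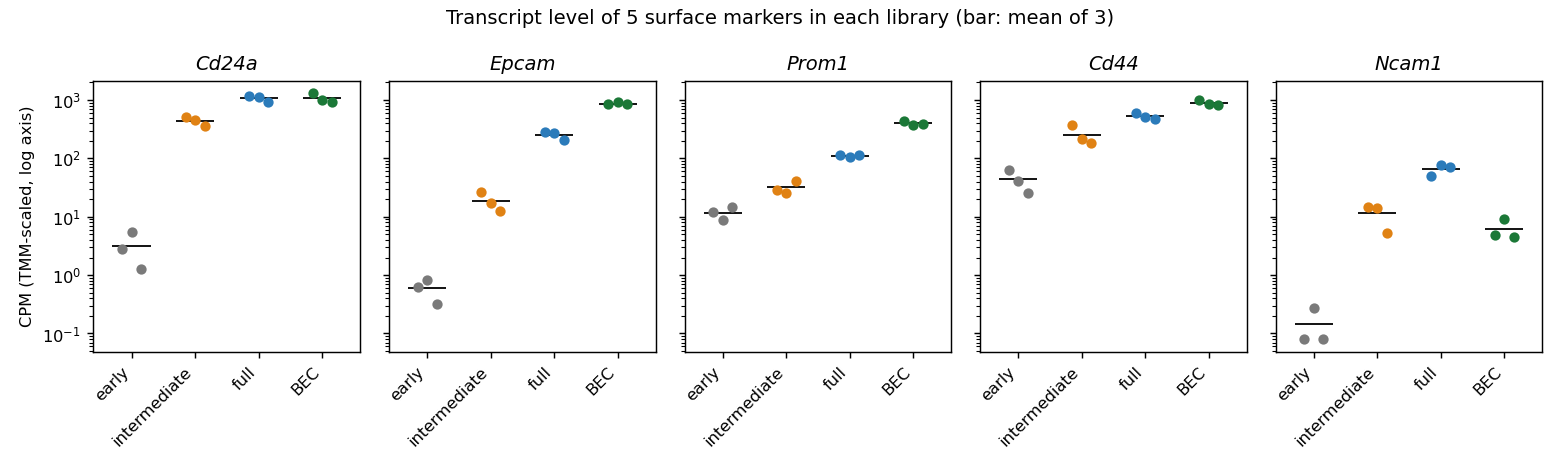
Level of each of the 5 genes in every library (CPM on a log axis; points are replicates 1 to 3 from left to right, the bar is the mean of 3). Cd24a, Epcam, Prom1 and Cd44 reach their highest levels in BEC or in full and BEC, while Ncam1 has a mean of 66.3 CPM in full and 6.20 in BEC.

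Cd24a was nearly absent from early cells and was highest in full cells and BECs alike. Early replicates 1 to 3 had 2.77, 5.55 and 1.29 CPM (35, 61 and 16 counts), and intermediate replicates had 509.8, 461 and 361.2 CPM. Full replicates had 1178, 1112 and 931 CPM, and BEC replicates 1300, 1002 and 918. The gap between early cells, sorted as Cd24-, and both Cd24+ groups is set by the gate and checks the sort. Full libraries also lay above every intermediate library, which the Cd24 gate does not set, since intermediate and full cells were both Cd24+. Across that second step Cd24a rose by a log2 fold change of 1.27 (SE 0.26, edgeR adjusted p 0.00128), from 41.3% of the full level.

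BECs were collected without regard to Cd24, yet their Cd24a level overlapped that of full cells. The log2 difference between BEC and full was -0.00 (95% interval -0.54 to 0.54, edgeR adjusted p 1). That interval leaves room for a difference of either sign. No other member was as close between these groups.

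Epcam followed its gate and also differed within gates. Early replicates had 0.633, 0.818 and 0.324 CPM (8, 9 and 4 counts), and intermediate replicates 26.6, 17.4 and 12.4 CPM. Both groups were sorted as Epcam-, yet they did not overlap, and Epcam was higher in intermediate by a log2 fold change of 4.99 (SE 0.36, edgeR adjusted p 7.68e-08). Full replicates had 283, 273 and 207 CPM, and BEC replicates 846, 907 and 844. Both of these groups were Epcam+, and BECs were higher by 1.77 on the log2 scale (SE 0.21, edgeR adjusted p 3.87e-05). The mean in full cells was 29.4% of the BEC mean, and that of intermediate cells 2.17%.

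The ratio of Epcam to Cd24a sets both sort markers side by side. Per kilobase of annotated exon, the ratio of Epcam to Cd24a lay between 0.0404 and 0.0614 in intermediate libraries, between 0.262 and 0.288 in full, and between 0.765 and 1.08 in BEC. The gap between intermediate and full was set by the Epcam gate. Full and BEC libraries, both Epcam+, did not overlap, though only full cells were gated on Cd24. Early libraries had ratios of 0.173 to 0.294, from 4 to 9 Epcam counts each.

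**Figure D2:**
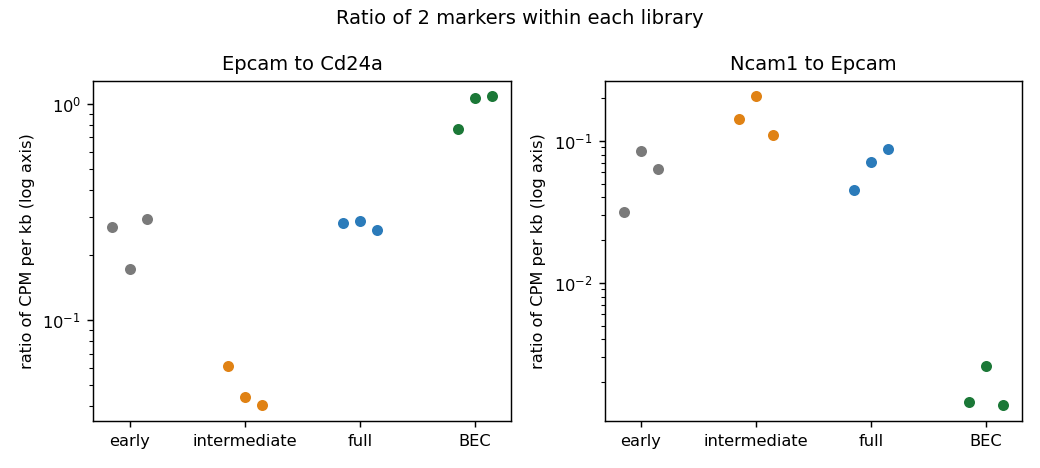
Ratio of CPM per kilobase of 2 genes within each library (log axis; each point is 1 library). Epcam to Cd24a is lowest in intermediate (0.0404 to 0.0614) and highest in BEC, and Ncam1 to Epcam is lowest in BEC (0.00137 to 0.00258). Differences between Epcam- and Epcam+ groups are partly set by the sort. Early ratios of Ncam1 to Epcam rest on 1 to 3 Ncam1 and 4 to 9 Epcam counts per library.

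Prom1 was not used in the sort and was called higher at each step, by 2.71-, 3.47- and 3.63-fold in turn. Early replicates had 11.9, 8.73 and 14.5 CPM, and intermediate replicates 28.5, 25.2 and 41.7. Full replicates had 113.4, 104.2 and 113.3 CPM, and BEC replicates 437, 370.0 and 395. No 2 groups overlapped. The log2 fold changes were 1.44 (SE 0.19, edgeR adjusted p 2.61e-05) at the first step, 1.79 (SE 0.18, edgeR adjusted p 3.53e-06) at the second and 1.86 (SE 0.18, edgeR adjusted p 5.01e-06) from full to BEC.

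Converted cells stood at 27.5% of the BEC level of Prom1, close to their 29.4% for Epcam. The change of Prom1 at the second step exceeded that at the first by 0.36 on the log2 scale (95% interval -0.33 to 1.04, edgeR adjusted p 0.510), which was not called. Scaled by total counts alone, this value was -0.10, and with 1 library left out it ranged from 0.067 to 0.84. Gm16401, annotated on the opposite strand across a Prom1 exon, had 2 to 10 counts per library in intermediate and full and 7 to 23 in BEC, and whether counting used strand is not given in the sources used here.

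Cd44 was already present in early cells and changed most at the first step. Early replicates had 63.7, 41.6 and 25.7 CPM, and intermediate replicates 367.9, 219 and 180.4. The 2 groups did not overlap, and the log2 fold change was 2.55 (SE 0.30, edgeR adjusted p 8.32e-06). Full replicates had 599.7, 514 and 477 CPM, a further rise of 1.05 (SE 0.28, edgeR adjusted p 0.00895). The contrast of the second step with the first was -1.496 (SE 0.48, edgeR adjusted p 0.0485). That call is fragile: it was lost in 10 of the 12 fits that left out 1 library, with -0.79 (edgeR adjusted p 0.314) without intermediate replicate 1, and was kept with the replicate number as a block (-1.44, edgeR adjusted p 0.00188).

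BECs had the highest Cd44 levels, 985, 850 and 806 CPM, above every full library. The log2 difference from full was 0.73 (95% interval 0.13 to 1.34) and was not called (edgeR adjusted p 0.0864). It was called with the replicate number as a block (0.73, edgeR adjusted p 0.00306), and also without early replicate 1 (0.730, edgeR adjusted p 0.0359), early replicate 3 (0.730, edgeR adjusted p 0.038) or intermediate replicate 1 (0.729, edgeR adjusted p 0.0392). Leukocytes also carry Cd44. The 8 leukocyte markers summed to between 5.30 and 8.01 CPM in early and between 130 and 137 in BEC, of which Csf1r made up 127 ± 6.69 (SD, n = 3) in BEC. Ptprc, the pan-leukocyte CD45 gene, was at 0.681 ± 0.44 CPM or below in each group (SD, n = 3). Cd3e was at 0 counts in full and at 1 count in each other group. The part of these cells in the Cd44 levels was not tested.

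Ncam1 had a pattern of its own among the 5, with its peak in full cells. Early libraries had 1, 3 and 1 counts. Intermediate replicates had 14.9, 14.1 and 5.32 CPM, and full replicates 50.6, 76.1 and 72.1. BEC replicates fell back to 4.82, 9.22 and 4.57 CPM. Full libraries lay above every library of the other groups, whereas intermediate and BEC overlapped.

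From early to intermediate summed Ncam1 counts went from 5 to 588, a ratio of 81.7 after scaling for TMM library size (95% exact interval 34.8 to 252, counting error only), and the rise was called (edgeR adjusted p 3.95e-06). Full cells were higher than intermediate by 2.54 on the log2 scale (SE 0.33, edgeR adjusted p 4.09e-05). BECs were lower than full cells by a log2 fold change of -3.42 (SE 0.35, edgeR adjusted p 1.01e-05), which put them at 9.36% of the full mean. This was the 109th lowest of 16210 log2 fold changes between these groups. A gene called higher in full than in each of the other 3 groups was uncommon: 292 genes, or 1.80% of those tested, met all 3 tests, and Ncam1 was the only member among them.

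BECs were also lower than intermediate cells in Ncam1 (-0.88, SE 0.35, edgeR adjusted p 0.0473). This call was lost in 9 of the 12 fits that left out 1 library, with edgeR adjusted p up to 0.171. It remained without intermediate replicate 3, full replicate 1 or BEC replicate 2. It was also lost with DESeq2 (-0.83, DESeq2 adjusted p 0.0579). For the second step against the first, the contrast was -3.75 (SE 1.01, edgeR adjusted p 0.0215). That contrast missed the threshold without early replicate 1 (-3.47, edgeR adjusted p 0.0639), early replicate 3 (-3.49, 0.0679), intermediate replicate 1 (-3.30, 0.0679) or intermediate replicate 2 (-3.39, 0.0736).

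Other liver cells can carry Ncam1, and their part in its level was not tested. Summed over 4 natural killer and T cell markers the level was at most 0.233 CPM in any library, and Ncr1 had 0 counts in all 12. The 8 stellate cell and fibroblast markers summed to between 95.6 and 273 CPM in early and between 44.8 and 74.2 in full. Sox10, a Schwann cell factor, had 0 counts in intermediate and full, and the 3 nerve and Schwann markers together had between 4.30 and 5.53 CPM in full and between 4.84 and 6.36 in BEC. Gm11149, annotated opposite an Ncam1 exon, had 15 counts over the 3 full libraries against 4545 for Ncam1.

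**Figure D3:**
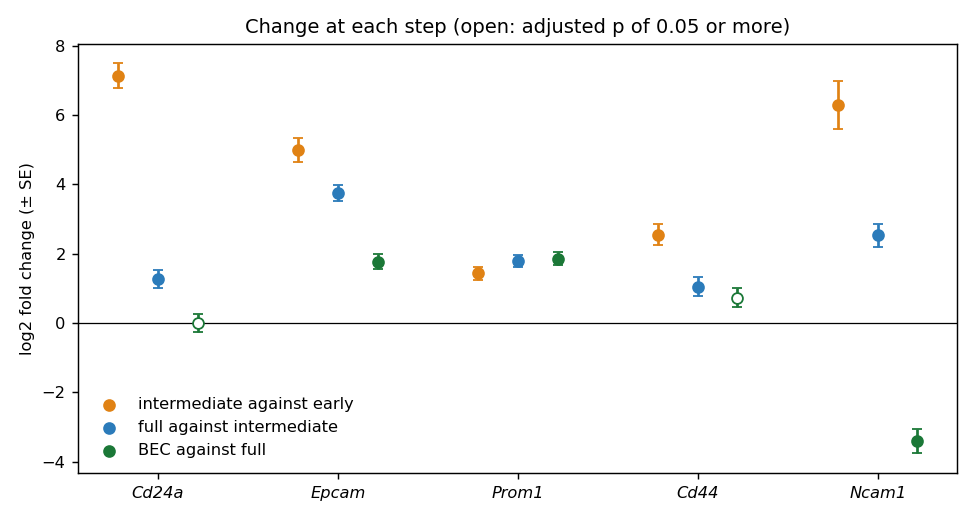
Log2 fold change of each gene at the 3 steps (bars are ± SE from the fit of 12 libraries; open circles were not called). The first step is the largest for Cd24a at 7.14, where it crosses the Cd24 gate, as the second step of Epcam crosses the Epcam gate. Prom1 changes by 1.44 to 1.86 at each step. Ncam1 is the only one of the 5 below 0 from full to BEC, at -3.42, apart from Cd24a at -0.00.

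Counted together, the 5 genes moved with a large part of the transcriptome. All 5 were called higher in intermediate than in early, Cd24a by its gate, where 28.7% of all genes tested were higher, 25.7% lower and 54.4% called in all. All 5 were called higher in full than in intermediate, Epcam by its gate, against 20.8% of genes higher, 19.8% lower and 40.7% in all. Both rises together were called for 12.8% of genes. Prom1, Cd44 and Ncam1, which the sort did not use, are the 3 members for which neither call was set by a gate. Between BEC and full, 21.3% of genes were called. Epcam and Prom1 were among the 10.7% that were higher and Ncam1 among the 10.6% that were lower. Cd24a and Cd44 were not called in the main fit, though Cd44 was with the replicate number as a block. In the main fit only Epcam and Prom1 of the 5 were called higher at all 3 steps, as were 3.31% of genes. The second of these calls for Epcam was set by its gate.

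The Cd24 and Epcam gates set the next comparisons for the genes they used: Cd24a and Epcam in full against early, the same genes in the test across groups, and Epcam in BEC against early and against intermediate. Early cells were also gated as Cd24- where BECs were not gated on it. All 5 were higher in full than in early, where 39.1% of genes were higher, 32.1% lower and 71.2% called. All 5 were also higher in BEC than in early, against 40.0% higher, 33.0% lower and 73.1% called. BEC against intermediate gave 4 higher (26.3% of genes) and 1 lower, Ncam1 (26.2% of genes), with 52.4% called. Each of the 5 passed the F test across the 4 groups (edgeR adjusted p from 1.81e-11 to 1.88e-07), as did 75.6% of genes.

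The steps were also compared with each other. The second step was called smaller than the first for Cd24a, Cd44 and Ncam1, as for 10.8% of genes. It was called larger for 0 of the 5, against 5.64% of genes (16.4% called in all). For Cd24a the contrast was -5.86 (SE 0.46, edgeR adjusted p 2.18e-06). The Cd24 gate sets that difference for Cd24a. For Epcam the second step crosses the Epcam gate and the first does not, so its contrast of -1.23 (95% interval -2.36 to -0.09) is a description.

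Per kilobase of exon, the 5 markers can be ranked within each group. The places of Cd24a from early to intermediate and of Epcam from intermediate to full were set by the gates. In early cells Cd44 led with 6.45 ± 2.82 CPM per kb, above Prom1 at 1.63 ± 0.40 and Cd24a at 1.24 ± 0.84 (SD, n = 3). In intermediate cells Cd24a led at 172 ± 29.4, followed by Cd44 at 37.7 ± 14.6 and Epcam at 8.57 ± 3.29 (SD, n = 3). In full cells the order was Cd24a (416 ± 49.6), Epcam (116 ± 18.7), Cd44 (78.2 ± 9.30), Prom1 (15.4 ± 0.74) and Ncam1 (7.65 ± 1.58; SD, n = 3). BECs kept that order, with Epcam at 394 ± 16.2 now within the spread of Cd24a at 416 ± 77.8 (SD, n = 3), and Ncam1 at 0.716 ± 0.302. Lengths are exon unions of GENCODE M21, from 2.195 kb for Epcam to 8.664 kb for Ncam1. Both Cd44 and Ncam1 are spliced into many forms, which counts per gene do not separate.

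Genes with the most similar profiles were found by the root mean square difference of centred log2 CPM over the 12 libraries, among 10918 genes reaching 10 CPM in a group. For Cd24a these were Anxa13 (0.415), Arl4c (0.495) and Ppp2r2b (0.496). Klf5, a transcription factor of epithelia (0.485), Kcnn4, a calcium-activated potassium channel (0.543), and Asz1 (0.546) came nearest to Epcam. The nearest to Prom1 were Ucp2 (0.326), Unc13d (0.377) and Plcg2 (0.395), and to Cd44 Mpzl1 (0.221), Armcx1 (0.264) and Ints6l (0.277). With a prior count of 0.5 in place of 2, 0 of these 3 genes remained for Epcam, 1 for Cd24a, 1 for Prom1 and 2 each for Cd44 and Ncam1. Among the members themselves, Prom1 and Cd44 were the closest pair (0.828) and Epcam and Ncam1 the farthest (2.56).

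The neighbours of Ncam1 shared its peak in full cells. They were Scn7a, a sodium channel gene (0.702), Pcdh11x, a protocadherin (0.721), and Mdk, the growth factor midkine (0.733). Scn7a was at 0.483 ± 0.22, 68.1 ± 26.7, 142 ± 16.0 and 20.9 ± 3.88 CPM in early, intermediate, full and BEC (SD, n = 3). Mdk was at 0.551 ± 0.14, 36.7 ± 14.7, 82.0 ± 3.61 and 21.4 ± 4.06 CPM (SD, n = 3). As profiles were chosen for their likeness, their fall in BEC is a description.

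**Figure D4:**
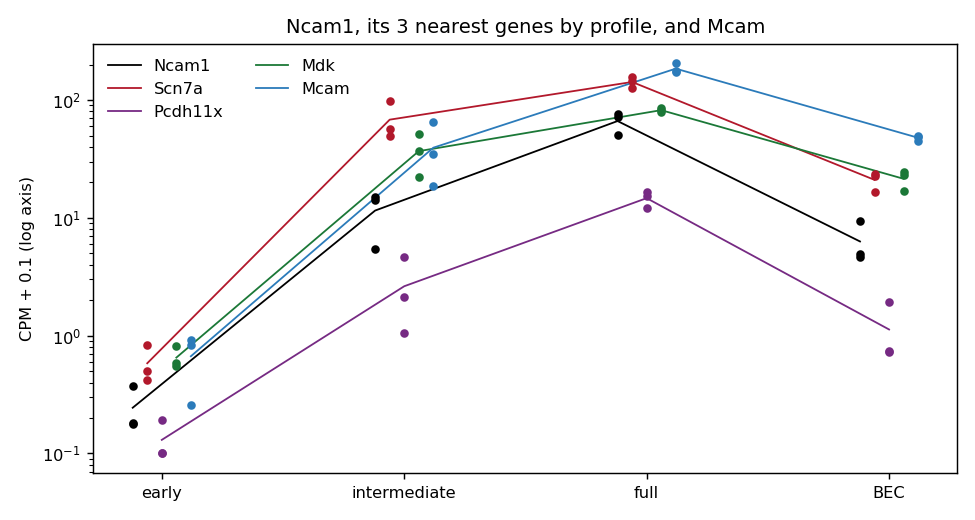
Level of Ncam1, of its 3 nearest genes by profile and of Mcam, an adhesion gene from the Ncam1 list (CPM + 0.1 on a log axis; points are libraries, lines join group means). All 5 genes have their highest mean in full, for Mcam 185 CPM against 47.7 in BEC.

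Lists of genes that act with the members were counted in the same fit. Of 12 adhesion relatives, polysialyltransferases and ligand genes tied to Ncam1, 8 were tested. At the first step 5 were higher and 2 lower (median log2 fold change 1.502, against 0.06 over all genes tested), at the second 2 were higher and 2 lower (-0.03 against 0.01), and from full to BEC 1 was higher and 3 lower (-0.72 against 0.00). Of all genes tested, 28.7% were higher and 25.7% lower at the first step, 20.8% and 19.8% at the second, and 10.7% and 10.6% from full to BEC. Without intermediate replicate 3 or full replicate 1, 1 rather than 2 was lower at the second step. With a mean of at least 50 counts, 3 were higher and 1 lower at the first step, 1 was lower at the second, and 0 were higher from full to BEC.

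Mcam, the adhesion molecule CD146, had 0.568 ± 0.36 CPM in early and 39.3 ± 23.4 in intermediate (SD, n = 3), a called rise of 6.12 on the log2 scale (edgeR adjusted p 3.91e-07). It rose again to 185 ± 17.0 in full (SD, n = 3; 2.24, edgeR adjusted p 7.13e-05). BECs had 47.7 ± 2.48 CPM (SD, n = 3) and were lower than full cells (-1.95, edgeR adjusted p 0.000392). Ncam2, the paralogue of Ncam1, went the other way, from 7.70 ± 2.55 CPM in early to 0.217 ± 0.10 in BEC (SD, n = 3). Its fall at the first step was called (-2.28, SE 0.41, edgeR adjusted p 0.000328). Gfra1, a receptor for GDNF that can pair with Ncam1, fell at all 3 steps, from 222 ± 26.1 to 2.49 ± 0.46 CPM (SD, n = 3). L1cam was highest in BEC at 1.37 ± 0.02 CPM (SD, n = 3). St8sia2 and St8sia4, which add polysialic acid to Ncam1, did not pass the filter and had 13 and 3 counts over the full libraries.

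Of 18 genes of the Cd44 axis, covering hyaluronan turnover, cytoskeletal linkers, ligands and splicing factors, 15 were tested. At the first step 5 were higher and 4 lower (median 0.00), at the second 7 higher and 5 lower (0.24), and from full to BEC 4 higher and 2 lower (0.01). With total counts only, the first 2 of these splits became 9 against 2 and 9 against 3. From full to BEC, 1 rather than 2 was lower without intermediate replicate 2 or without any 1 full or BEC library. Calls over all genes tested were higher for 28.7% and lower for 25.7% at the first step, 20.8% and 19.8% at the second, and 10.7% and 10.6% in the last comparison.

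Spp1, the osteopontin ligand of Cd44, rose at the first step together with Cd44 (3.00, SE 0.26, edgeR adjusted p 4.46e-07). Of the linkers that tie Cd44 to actin, Ezr rose at all 3 steps, from 37.1 ± 7.002 CPM to 104 ± 7.17, 274 ± 25.9 and 528 ± 21.6 (SD, n = 3). Msn rose from 7.47 ± 3.74 to 102 ± 51.0 CPM at the first step (SD, n = 3; 3.77, SE 0.37, edgeR adjusted p 1.58e-06) and had 200.4 ± 42.5 CPM in full and 144 ± 21.8 in BEC (SD, n = 3; -0.48, edgeR adjusted p 0.34). That fall was called with the replicate number as a block (-0.46, edgeR adjusted p 0.0332), with the compared groups only (-0.49, 0.0374) and with no filter (-0.51, 0.0247). Rdx was lower in full than in intermediate (-0.66, SE 0.11, edgeR adjusted p 0.0003) and in BEC than in full (-0.57, SE 0.11, edgeR adjusted p 0.00175). Has2, a hyaluronan synthase gene, had 0 counts in every library. Hmmr, a hyaluronan-binding protein of the mitotic spindle, fell at the first step (-2.69, SE 0.51, edgeR adjusted p 0.0005) and rose at the second (3.56, SE 0.49, edgeR adjusted p 5.79e-05). Stab2, a hyaluronan scavenger receptor of sinusoidal endothelium, fell at both, from 11.9 ± 0.95 to 1.40 ± 0.73 CPM in full (SD, n = 3). Its first fall (-1.25, edgeR adjusted p 0.0245) was lost under total counts alone (-0.58, edgeR adjusted p 0.242) and without early replicate 2 (-1.23, 0.0558), early replicate 3 (-1.20, 0.0584), intermediate replicate 1 (-1.11, 0.0734) or intermediate replicate 2 (-1.11, 0.0865).

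Of the splicing factors that favour epithelial Cd44 forms, Esrp1 had 0 counts in early and intermediate and 10.8 ± 3.87 CPM in full, at least 61.7-fold higher than the intermediate floor of 3 counts per library, and 92.0 ± 5.90 CPM in BEC (SD, n = 3). Esrp2 fell at the first step (-1.02, SE 0.10, edgeR adjusted p 1.22e-06) and at the second (-0.57, SE 0.10, edgeR adjusted p 0.00037), from 166 ± 1.17 to 55.1 ± 2.81 CPM (SD, n = 3). BECs had 70.9 ± 6.01 CPM of Esrp2 (SD, n = 3), higher than full (0.36, SE 0.10, edgeR adjusted p 0.0155). That rise was not called with no filter (0.33, edgeR adjusted p 0.0589) or without full replicate 1 (0.33, edgeR adjusted p 0.0676), full replicate 3 (0.36, 0.0578), BEC replicate 2 (0.33, 0.0724) or BEC replicate 3 (0.33, 0.0652).

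All 13 partners, proteases and inhibitors listed for Epcam were tested. At the first step 5 were higher and 2 lower (median 0.37), at the second 8 and 2 (0.40), and from full to BEC 8 and 1 (0.48). The corresponding shares of all genes were 28.7% and 25.7%, 20.8% and 19.8%, and 10.7% and 10.6%. With total counts only, 11 were higher at the first step. Without full replicate 2 or BEC replicate 3, 5 rather than 8 were higher from full to BEC. Cldn7, a claudin that binds Epcam, rose at each step, from 17.3 ± 1.17 CPM to 59.3 ± 5.44, 127 ± 10.5 and 177 ± 13.4 (SD, n = 3). The tetraspanin gene Tspan8, another partner, rose most from full to BEC (1.65, SE 0.19, edgeR adjusted p 3.08e-05). Spint1, an inhibitor of the protease matriptase that cleaves Epcam, went from 0.308 ± 0.06 to 246 ± 10.2 CPM across the 4 groups (SD, n = 3). Among the genes of the list, 2 fell at both conversion steps, namely Cldn1, from 123 ± 15.8 to 4.34 ± 1.24 CPM, and Psen2, from 303 ± 24.8 to 33.6 ± 3.80 (SD, n = 3).

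Of 16 further surface markers of ductal and progenitor cells, 14 were tested. At the first step 9 were higher and 1 lower (median 0.76), at the second 9 were higher and none of the 14 lower (1.02), and from full to BEC 7 were higher and 1 lower (0.42). In the same order, 28.7% and 25.7%, 20.8% and 19.8%, and 10.7% and 10.6% of all genes were higher and lower. At the second step 2 were lower without early replicate 1, and 1 without early replicate 3 or intermediate replicate 3. That count was also 1 with the replicate block, 1 with no filter and 2 with the compared groups only. With a mean of at least 50 counts, 0 were lower at the first step. From full to BEC 2 were lower with no filter or without early replicate 1, and 0 without full replicate 1 or 3 or BEC replicate 1 or 2. Muc1, a membrane mucin, had 0 counts in early and 22 in intermediate (edgeR adjusted p 0.0411, lost without any 1 early library or intermediate replicate 1 or 3, with edgeR adjusted p from 0.0509 to 0.118). It reached 28.4 ± 9.73 CPM in full and 316 ± 73.0 in BEC (SD, n = 3). Lgr5, a Wnt-responsive receptor, fell at the first step (-3.62, SE 0.63, edgeR adjusted p 0.000263). Tnfrsf12a, the TWEAK receptor Fn14, rose at the first step (0.93, SE 0.21, edgeR adjusted p 0.00183) and was lower in BEC than in full (-0.69, SE 0.21, edgeR adjusted p 0.0274). The BEC difference missed the threshold on leaving out full replicate 1 (-0.61, edgeR adjusted p 0.0978), full replicate 3 (-0.72, 0.0578), BEC replicate 1 (-0.56, 0.116) or BEC replicate 2 (-0.73, 0.0622).

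The last list held 9 genes tied to Prom1 and Cd24a, of which 7 were tested. At the first step 2 were higher and 4 lower (median -0.95), at the second 3 higher and 1 lower (0.61), and from full to BEC 4 higher and 1 lower (0.56). Among all genes these shares were 28.7% and 25.7%, 20.8% and 19.8%, and 10.7% and 10.6%. With total counts only, the first split was 3 against 1. Without early replicate 3, without intermediate replicate 1 or with the compared groups only, 2 rather than 4 were lower at that step. Vil1, which encodes the microvillus protein villin, rose at all 3 steps, from 2.15 ± 0.29 to 73.6 ± 7.66 CPM (SD, n = 3). Cdhr5, a cadherin of microvillus tips, fell from 227 ± 20.1 to 23.5 ± 1.60 CPM in full (SD, n = 3) and was higher again in BEC (0.56, SE 0.10, edgeR adjusted p 0.0014). Ttyh1 resembled Ncam1 in being highest in full, at 6.88 ± 1.53 CPM against 1.77 ± 0.31 in BEC (SD, n = 3; -1.95, SE 0.27, edgeR adjusted p 0.000136). Unlike Ncam1, Ttyh1 did not rise at the first step, with 1.41 ± 0.40 CPM in early and 0.727 ± 0.14 in intermediate (SD, n = 3). Prom2, the paralogue of Prom1, reached only 1.04 ± 0.35 CPM in BEC (SD, n = 3), and its difference from full (2.78, SE 0.77, edgeR adjusted p 0.0228) was lost with DESeq2 (2.84, DESeq2 adjusted p 0.0523). It was also lost without full replicate 1 (2.695, edgeR adjusted p 0.0888), full replicate 3 (2.22, 0.0747), BEC replicate 2 (2.47, 0.101) or BEC replicate 3 (2.87, 0.0508). Cdhr2, another microvillus cadherin, fell at the first step from 35 to 6 summed counts (-3.01, SE 1.08, edgeR adjusted p 0.0302). It did not hold with DESeq2 (-3.15, DESeq2 adjusted p 0.053), under total counts alone (-2.35, edgeR adjusted p 0.0693), and without any 1 early library or intermediate replicate 1 or 2 (edgeR adjusted p from 0.0501 to 0.0929).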

How the data were processed

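Bulk RNA-seq was made from 12 sorted samples. Raw counts by gene symbol were deposited, and for them the submitters' processing notes name STAR 2.7.10b, featureCounts 2.0.1, DESeq2 and GRCm39. Annotation, strandedness and the treatment of reads matching several genes are not given in the sources used here. A second deposited table of normalised values was not used.

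Fits used edgeR 4.0.16 in R 4.3.3. DESeq2 1.42.0 served as an alternative, and Python 3.11.15 drew the figures through matplotlib 3.10.9. Genes were kept by filterByExpr, scaled by TMM and fitted together over 12 libraries by group. The test was edgeR's quasi-likelihood F test of each contrast. A gene was called where its p, adjusted by Benjamini-Hochberg across all 16210 genes, was below 0.05. Intervals of 95% use the fit's SE and degrees of freedom. Profiles used log2 CPM with a prior count of 2. The procedure was tested on simulated data.

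The members, the lists and the named genes were chosen with earlier results of these data known. Named genes were the members, 10 paralogues or partners (1 is not reported here), the 3 nearest profiles per member, and the called gene with the largest change in each direction per list and step. Deviations from group means correlated between same-numbered libraries across genes. At the first step r ran from 0.121 to 0.293, at the second from 0.137 to 0.322, and for BEC and full from 0.170 to 0.257. The numbers were taken to pair the libraries there. Elsewhere r ran from 0.096 to 0.209 (full and early), from 0.044 to 0.145 (BEC and early) and from 0.084 to 0.175 (BEC and intermediate). The main fit had no term for the replicate number, so pairing enters only through the replicate block. What the numbers mark is not given in the sources used here. Alternatives were DESeq2, other scaling and filters, fits of the compared groups only, a replicate block and leaving out each library. Floors and count intervals cover counting error only, since PCR reads are not independent molecules.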

Additional observations from a re-analysis of the deposited data

How the results depend on the processing

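Of 30 comparisons of a member between 2 groups, 3 changed sign or side of the threshold under any of the alternatives tried, and 539 of 570 recomputed values did not. Cd24a in BEC against full changed sign near 0, none past the threshold, with DESeq2 (0.0076), median-of-ratios factors (0.0115), total counts only (4.51e-05) and a mean of at least 50 counts (0.0132), and ranged from -0.16 to 0.10 when 1 library was left out (0.00403 without early replicate 2, 0.00343 and 0.00400 without intermediate replicates 2 and 3, 0.07 and 0.0226 without full replicates 1 and 2, 0.0447 and 0.0991 without BEC replicates 2 and 3). Cd44 in BEC against full was called with no filter (0.70), with the replicate block (0.73) and with the compared groups only (0.72), and ranged from 0.64 to 0.83 with 1 library left out. Ncam1 in BEC against intermediate was lost with DESeq2 (-0.83), median-of-ratios factors (-0.83), total counts only (-0.68), a mean of at least 50 counts (-0.84) and the compared groups only (-0.89), so that 0 members were lower there, and ranged from -1.28 to -0.65, with 0 to 1 members lower. For the second step against the first, Epcam, whose second step crosses its gate, was called with total counts only (-1.69) and no filter (-1.26) and ranged from -1.69 to -0.57. Prom1 changed sign with total counts only (-0.10). Cd44 lost its call with median-of-ratios factors (-1.40), a mean of at least 50 counts (-1.46) and the compared groups only (-1.48), and ranged from -1.90 to -0.79. Ncam1 ranged from -4.51 to -3.30. Total counts only shifted the all-gene median from 0.06 to 0.72 at the first step and from 0.01 to 0.21 at the second. The replicate block changed no other call of a member. Of the 3 nearest genes, a prior count of 0.5 kept 1 for Cd24a, 0 for Epcam and 1 for Prom1, and total counts only kept 1 for Epcam. Other sign changes were Rdx at the first step (0.59 with total counts only, called; 0.0052 and 0.0201 without early replicate 3 and intermediate replicate 1, lowest -0.15) and, from full to BEC, Psen2 (0.00244 with DESeq2, 0.006 with median-of-ratios factors and 0.0072 with a mean of at least 50 counts). With 1 library left out, the values from full to BEC ranged from -0.045 to 0.24 for Spp1, from -0.082 to 0.082 for Psen2, from -0.047 to 0.40 for Hmmr and from -2.38 (without BEC replicate 3) to 3.30 for Cdhr2, and for L1cam at the second step from -0.90 to 0.43. Of 570 recomputed list counts, 36 moved by more than 1.5 times. Apart from the shift of the median, the cause of these changes was not tested. The 1 to 9 counts of Ncam1 and Epcam in early libraries limit how large their first rise can be said to be.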
